A study of Homo sapiens with 16 samples.

Results

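Cytosolic ribosomal proteins build the ribosome that translates nuclear-encoded mRNA. Their genes were taken as the protein-coding rows of the deposited count table whose symbol is RPL or RPS with a number and an optional suffix letter, or RPSA, RPLP0, RPLP1 or RPLP2, leaving out the RPS6K kinases. This rule found 86 of 60664 gene rows. They comprise 43 genes of the large subunit, 3 genes of the P-stalk, 31 genes of the small subunit and 9 paralogs (RPL3L, RPL7L1, RPL10L, RPL22L1, RPL26L1, RPL39L, RPS27L, RPS4Y1 and RPS4Y2). A filter on low counts kept 83 of them among 15301 genes tested, and RPL3L, RPL10L and RPS4Y2 did not pass it. The 2 Y-linked paralogs are counted but no value is given for them.

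RNA was sequenced from 16 libraries of THP-1 cells, an established human monocytic leukaemia line, in 4 groups of 4 libraries. All groups were first treated with the phorbol ester PMA at 100 ng/mL for 48 hours, which turns the monocytic cells into macrophage-like cells called M0, and PMA was then removed. The group M0+LPS+IFN-γ+iMSCs received lipopolysaccharide of P. gingivalis at 100 ng/mL and interferon gamma at 20 ng/mL for 48 hours, with iMSCs in the upper chamber of a Transwell insert, which keeps the cell layers apart. The group M0+LPS+IFN-γ received both stimuli without iMSCs, the group M0+iMSCs shared the wells with iMSCs without the stimuli, and the group M0 had neither. All libraries derive from 1 cell line that carries the WT label. The labels do not describe the replicates of a group as separate cultures. The p-values therefore reflect only how much these libraries vary, and that variation could be technical.

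The small subunit of the ribosome reads the mRNA, the large subunit joins amino acids, and the P-stalk recruits the translation factors that bind GTP. Most mRNAs of ribosomal proteins begin with a C followed by a run of C and T letters, the 5′ terminal oligopyrimidine or TOP motif, through which the kinase complex mTORC1 and the RNA-binding protein LARP1 adjust their translation and stability. In monocytic cells interferon gamma is known to release RPL13A from the ribosome into the GAIT complex, which silences the translation of inflammatory mRNAs.

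The start region of 12 of these genes is shown because the genes recur in the comparisons. The feature that sets this gene family apart lies at the first letters, though not all 12 carry it. Each line gives 40 bases before the annotated start and 20 bases from it, taken from RefSeq on build GRCh38.p14 and read 5′ to 3′ on the gene's strand. Capitals mark the run of C and T letters that includes the first transcribed base, which is the letter after the first 40.
RPS27L, chr15:63157458-63157517, minus strand: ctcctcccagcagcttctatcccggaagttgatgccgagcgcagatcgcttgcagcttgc
RPS27, chr1:153990722-153990781, plus strand: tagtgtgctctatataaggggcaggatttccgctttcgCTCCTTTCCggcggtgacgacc
RPL22L1, chr3:170870176-170870235, minus strand: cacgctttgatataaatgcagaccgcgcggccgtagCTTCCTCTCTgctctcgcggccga
RPL22, chr1:6199576-6199635, minus strand: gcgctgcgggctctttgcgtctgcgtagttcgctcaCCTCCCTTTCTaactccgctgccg
RPSA, chr3:39406680-39406739, plus strand: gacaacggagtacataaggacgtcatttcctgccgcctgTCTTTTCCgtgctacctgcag
RPS26, chr12:56041878-56041937, plus strand: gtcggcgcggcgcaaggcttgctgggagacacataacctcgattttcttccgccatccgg
RPS6, chr9:19380217-19380276, minus strand: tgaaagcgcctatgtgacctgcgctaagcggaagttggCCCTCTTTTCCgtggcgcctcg
RPL13A, chr19:49487568-49487627, plus strand: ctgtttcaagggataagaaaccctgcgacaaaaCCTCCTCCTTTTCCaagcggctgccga
RPL3, chr22:39319604-39319663, minus strand: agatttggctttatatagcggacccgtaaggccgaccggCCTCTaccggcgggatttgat
RPS9, chr19:54200818-54200877, plus strand: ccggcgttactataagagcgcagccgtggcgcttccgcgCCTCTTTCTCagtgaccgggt
RPL41, chr12:56116593-56116652, plus strand: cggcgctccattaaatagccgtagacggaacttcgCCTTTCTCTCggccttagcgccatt
RPL14, chr3:40457299-40457358, plus strand: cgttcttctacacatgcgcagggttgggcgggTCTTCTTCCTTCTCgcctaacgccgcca

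RPS27L and RPS26 begin with G in this annotation and so carry no run, whereas the other 10 begin with C inside a run of 5 to 14 letters. Of the 86 genes 69 matched a RefSeq window of 300 bases. A C at the first base with C or T at the next 4 was present in 44 of the 69 (63.8%), against 1104 of all 27305 windows (4.04%). The letters CCGGAA, the core bound by ETS factors, occurred on either strand in 38 of the 69 windows (55.1%), against 17.6% of all windows. A shortened interferon-stimulated response element, made of GAAA words 2 bases apart, occurred in 5 (7.25%), against 3.65% of all windows. The E-box CACGTG was found in 4 (5.8%), against 7.43%, and the TATA letters TATAAA in 7 (10.1%), against 12% of all windows. All motifs were sought on both strands except the start feature. A match describes the letters and is not a binding site.

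Libraries held 17336637 to 24368753 counts, and no pair of replicates agreed within sampling noise, which would give a chi-square per degree of freedom near 1. Replicate 4 of M0+LPS+IFN-γ stood apart, at 104 to 113 against the other libraries of its group, which were at 2.21 to 3.41 among themselves, while pairs in the other groups were at 1.79 to 18.8. Results that rest on this library are given with and without it. The macrophage label was checked with 12 markers, of which CSF1R, LAPTM5 and CTSB each held 24304 counts or more in every group, while the CD68 row held only 9 to 21 counts per group. Of 13 mesenchymal stromal markers, COL5A1 had 0 counts in every group, COL1A2 had 0 in both co-culture groups, and DCN reached 1772 counts in M0+LPS+IFN-γ+iMSCs. The summed level of the mesenchymal list was 111 to 122 CPM in M0+LPS+IFN-γ+iMSCs, 103 to 209.6 CPM in M0+LPS+IFN-γ, 430.2 to 656 CPM in M0+iMSCs and 139.8 to 143 CPM in M0, where CPM is the count per 1e6 counts after TMM scaling. PDGFRA held most of these counts in M0+iMSCs, with 39679 there and 6828 in M0. Of 8 mesenchymal markers tested, 6 were called higher and 1 lower in M0+iMSCs against M0 (edgeR, adjusted p under 0.05). The log2 fold changes were 7.05 for DCN, 2.45 for PDGFRA, 1.96 for PRRX1, 1.88 for COL1A1, 1.86 for SPARC, 0.96 for PDGFRB and -1.44 for TWIST1. In M0+LPS+IFN-γ+iMSCs against M0+LPS+IFN-γ, 3 were higher and 3 lower (37.5% each, against 38.4% and 36.3% of all genes tested). DCN at 8.005, LUM at 5.31 and SPARC at 2.97 were higher, and PRRX1 at -4.54, PDGFRA at -0.99 and PDGFRB at -0.84 were lower. The part of these markers in the results was not tested.

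The 86 genes together held 2.94%, 3.35%, 3.28% and 3.15% of all counts in the 4 M0+LPS+IFN-γ+iMSCs libraries. In the M0+LPS+IFN-γ libraries they held 1.81%, 1.84%, 1.78% and 1.97%, in the M0+iMSCs libraries 3.02%, 2.92%, 3.31% and 3.49%, and in the M0 libraries 2.71%, 2.73%, 2.75% and 2.77%. Every M0+LPS+IFN-γ library was therefore below every other library, both co-culture groups were above M0, and the co-culture groups overlapped. The mean share was 3.18% ± 0.18 in M0+LPS+IFN-γ+iMSCs, 1.85% ± 0.0861 in M0+LPS+IFN-γ, 3.19% ± 0.264 in M0+iMSCs and 2.74% ± 0.0276 in M0 (SD, n = 4 each). A share falls when other transcripts take more of a library, and the chemokine CXCL8 alone averaged 1.64% of all counts in M0+LPS+IFN-γ+iMSCs, 9.07% in M0+LPS+IFN-γ, 1.8% in M0+iMSCs and 4.14% in M0. Without CXCL8 in the total the mean share was 2.03% in M0+LPS+IFN-γ and 2.86% in M0. In bulk RNA, fewer molecules per cell and fewer cells that express a gene cannot be told apart.

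**Figure D1:**
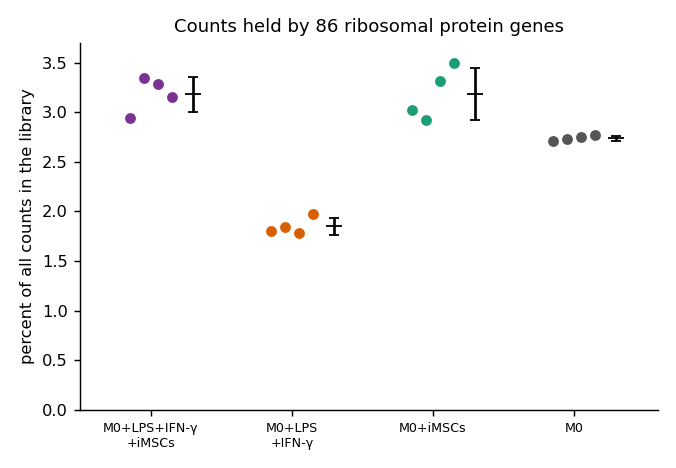
The share of all counts held by the 86 ribosomal protein genes, in percent, for each of the 16 libraries, with group means and SD bars beside the points. The 4 M0+LPS+IFN-γ libraries lie between 1.78% and 1.97%, below all other libraries.

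LPS and interferon gamma lowered most ribosomal protein mRNAs in macrophages cultured alone. In M0+LPS+IFN-γ against M0, 60 of the 83 tested genes fell and 6 rose (edgeR quasi-likelihood test, Benjamini-Hochberg adjusted p under 0.05 over 15301 genes). Falls thus covered 72.3% of them, against 28.3% of all genes tested, and rises 7.23%, against 29.1%. The median log2 fold change was -0.34, against 0.01 over all genes, and the fold changes of these genes spread less (SD 0.33) than those of all genes (SD 1.07). In the large subunit 33 of 43 genes fell and none rose, in the P-stalk all 3 fell, and in the small subunit 22 of 31 fell and 4 rose. Of 6 tested paralogs 2 fell and 2 rose. With library totals in place of TMM factors the median of all genes moved by -0.26, while 6938 of 15301 genes fell and 2520 rose. Of the members 76 fell and 1 rose. Their median was 0.35 below that of all genes (-0.346 with totals, -0.344 with TMM). A change of factors moves all genes by nearly the same amount, so this distance could hardly change and is no check of the result. Without M0+LPS+IFN-γ replicate 4, 64 fell and 5 rose, with a median of -0.36.

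**Figure D2:**
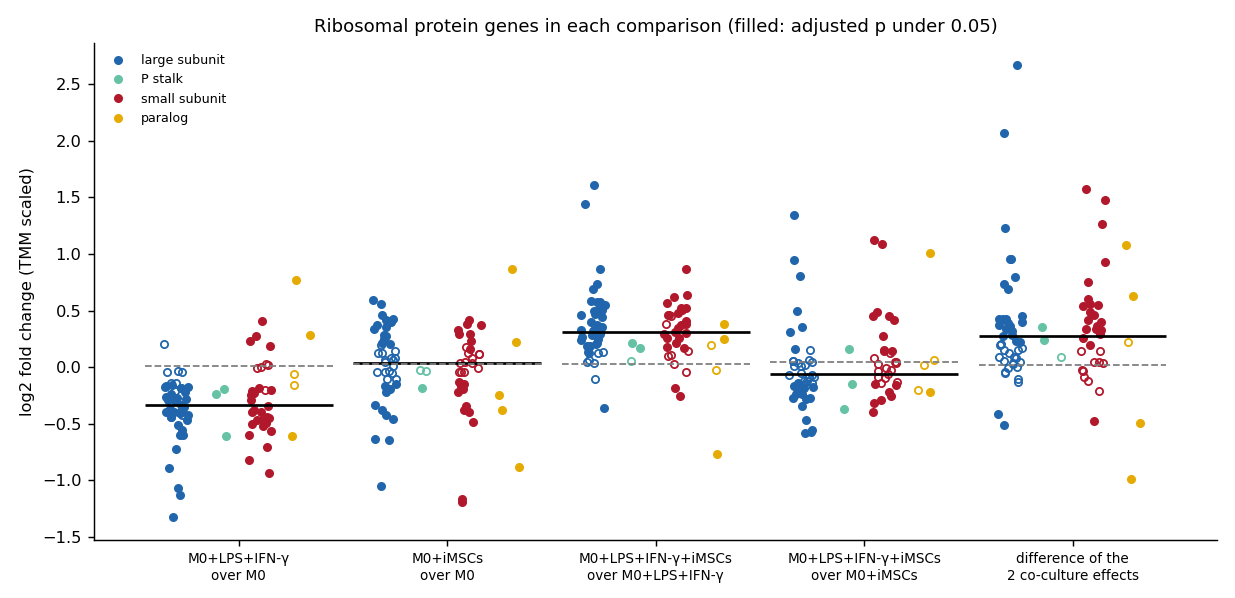
Log2 fold change of each ribosomal protein gene in the 5 comparisons, coloured by structural group, with filled points past an adjusted p of 0.05, a black line at their median and a dashed line at the median of all genes. The median lies at -0.34 for M0+LPS+IFN-γ over M0 and at 0.31 for M0+LPS+IFN-γ+iMSCs over M0+LPS+IFN-γ.

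Among large-subunit genes whose mean log2 CPM over all libraries reached 3, the largest falls on stimulation were those of RPL22, RPL7 and RPL14. Below that level RPL36A was at -1.33 and RPL26 at -1.13, both called lower. RPL22, which binds RNA on the outer face of the large subunit, was at 21.4, 20.5, 20.6 and 21.7 CPM in M0+LPS+IFN-γ, against 41.5, 44.6, 44.9 and 45.9 CPM in M0. The groups did not overlap, and the log2 fold change was -1.07 ± 0.08 (SE, adjusted p = 2.28e-09). The RPL22 row shares 52.3% of its span with another coding row on the same strand that held 0 counts. RPL7 of the large subunit had 435, 442, 462 and 469.97 CPM in M0+LPS+IFN-γ and 789.6, 841, 852 and 880.3 CPM in M0, with no overlap (log2 fold change -0.89 ± 0.06, adjusted p = 1.04e-09). RPL14 fell by 0.72 on the log2 scale.

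In the small subunit RPSA and RPS6 fell most at or above that level. RPSA, which also serves as a laminin receptor at the cell surface, had 201, 203, 206 and 204 CPM in M0+LPS+IFN-γ, against 359.8, 356, 345 and 373 CPM in M0. The 2 sets of libraries lay far apart (log2 fold change -0.82 ± 0.06, adjusted p = 3.2e-09). RPS6, the subunit phosphorylated by S6 kinases downstream of mTORC1, had 539, 564, 547 and 606 CPM in M0+LPS+IFN-γ, against 879, 943.5, 889 and 956 CPM in M0 (log2 fold change -0.70 ± 0.07, adjusted p = 8.3e-08). The P-stalk genes RPLP0, RPLP1 and RPLP2 fell by 0.61, 0.24 and 0.19. RPLP0, the base of the stalk, was at 621, 601, 610.5 and 488 CPM in M0+LPS+IFN-γ and at 902, 875, 862 and 906 CPM in M0, without overlap.

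The genes that moved against the majority were few. RPS27L, a paralog of RPS27 and a known target of p53, had 69.3, 68.2, 71.9 and 64.2 CPM in M0+LPS+IFN-γ, against 36.1, 41.9, 42.1 and 39.8 CPM in M0. Its groups did not overlap, and it rose by 0.77 ± 0.06 on the log2 scale (adjusted p = 3.28e-09). RPS20, a protein of the small-subunit head, had 721, 757, 723 and 959.9 CPM in M0+LPS+IFN-γ, against 590.3, 580.3, 598 and 606 CPM in M0. It rose by 0.41 ± 0.08 (adjusted p = 0.000357), and by 0.31 without M0+LPS+IFN-γ replicate 4, the library that stands above the other three. With library totals the RPS20 change was 0.15 and was not called.

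RPS9, RPS27 and RPL39L were among the other rises on stimulation, at 0.27, 0.19 and 0.28. None of these 3 was called with library totals, where RPS9 stood at 0.01, RPL39L at 0.03 and RPS27 at -0.07. The RPS27 call (adjusted p = 0.0461) was also lost without any 1 of the 4 M0 libraries, M0+iMSCs replicate 3, M0+LPS+IFN-γ replicate 2 or 4, or M0+LPS+IFN-γ+iMSCs replicate 1, 2 or 3, at 0.17 to 0.20 and, without M0+LPS+IFN-γ replicate 4, at 0.12 (adjusted p = 0.127). The RPL39L call (adjusted p = 0.0391) was lost without M0 replicates 1 or 4 or M0+LPS+IFN-γ replicates 1, 2 or 3, with values of 0.21 to 0.30. RPS27L alone kept a rise when library totals were used (0.52). RPL13A, the GAIT component, had 312, 330.3, 315 and 402 CPM in M0+LPS+IFN-γ and 389, 392, 399 and 394 CPM in M0, and its fold change of -0.21 did not pass the test (adjusted p = 0.0515). Its groups overlapped through replicate 4 of M0+LPS+IFN-γ, and without that library RPL13A was called lower at -0.30 (adjusted p = 0.0018).

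The start motif was compared with the size of the fall as a description. The 43 tested genes with a C and 4 pyrimidines at the annotated start had a median log2 fold change of -0.24 on stimulation, with 29 lower and 2 higher. The 23 without it had a median of -0.37, with 19 lower and 1 higher. Falls were thus present in genes with and without this feature at the annotated start. The genes without it include RPS7 and RPL3, whose runs of C and T letters span 11 and 5 bases. Whether transcription begins at the annotated start was not tested.

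**Figure D3:**
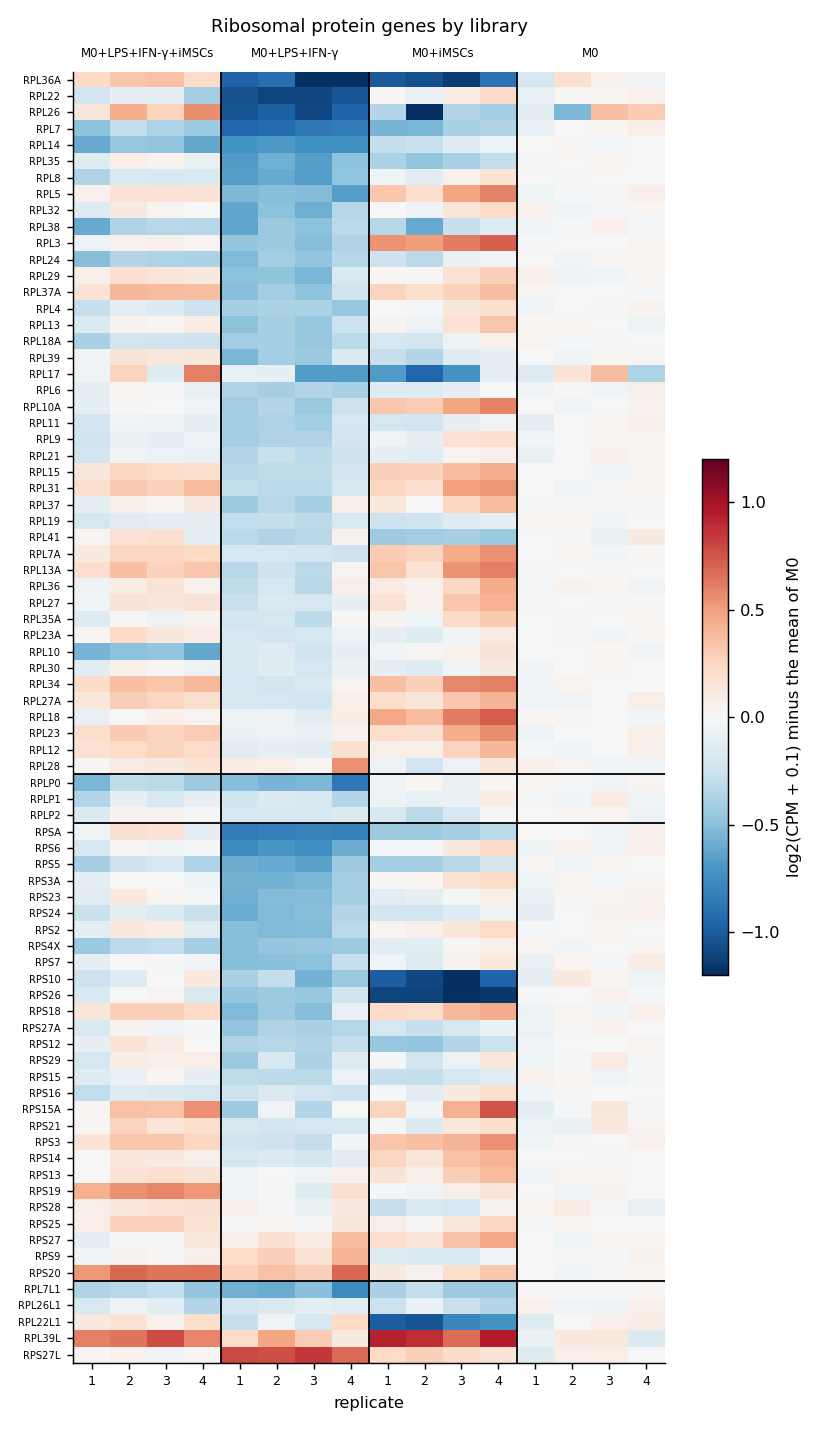
Log2 of CPM plus 0.1, minus the mean of the M0 libraries, for the tested ribosomal protein genes (rows, grouped into large subunit, P-stalk, small subunit and paralogs, Y-linked and a few other genes left out) in 16 libraries (columns, 4 per group). Most rows are blue in the M0+LPS+IFN-γ libraries, while rows such as RPS27L are red there.

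Co-culture with iMSCs without stimulation moved the ribosomal protein genes in both directions. In M0+iMSCs against M0, 25 of 83 rose and 27 fell. These shares, 30.1% and 32.5%, lay near those of all genes tested, 36.2% higher and 33.6% lower, and the median log2 fold change of 0.04 lay near the 0.03 of all genes. In the large subunit 15 of 43 rose and 12 fell, in the small subunit 8 of 31 rose and 11 fell, and in the P-stalk 1 of 3 fell. Library totals moved the median of all genes by 0.14, with 6541 genes higher and 4093 lower. With those totals 42 members rose and 11 fell. The members' median lay 0.007 above that of all genes, as with TMM factors. The split also depended on the M0+iMSCs libraries, since replicates 3 and 4 held more ribosomal protein counts than replicates 1 and 2. In alternatives chosen after seeing the data, the counts without replicates 1 and 2 were 37 higher and 14 lower, and without replicates 3 and 4 they were 16 higher and 29 lower.

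Among genes whose mean log2 CPM reached 3, the largest fall at rest was that of RPS26, which lies at the mRNA exit side of the small subunit. RPS26 had 77.9, 77.5, 67.6 and 74.6 CPM in M0+iMSCs, against 164, 166, 173 and 165 CPM in M0. The log2 fold change was -1.17 ± 0.07 (adjusted p = 7.54e-11), and every M0+iMSCs library stood below every M0 library by a wide margin. RPS10, below that level, was at -1.19 (adjusted p = 4.55e-06). RPL22L1, the paralog of RPL22, had 12.1, 11.7, 14.0 and 14.7 CPM in M0+iMSCs and 21.8, 24.1, 25.2 and 25.8 CPM in M0, and fell by 0.88 ± 0.10 (adjusted p = 7.61e-07). RPL7, RPL41 and RPSA fell by 0.46, 0.42 and 0.40, without overlap between the groups. RPL41, the shortest ribosomal protein, was at 385, 389, 394 and 379.6 CPM in M0+iMSCs, against 519, 511, 485 and 559 CPM in M0.

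At or above the same level, the largest rises at rest were in the large subunit, while the paralog RPL39L, below it, rose by 0.87 (adjusted p = 1.51e-06). RPL3, which lies near the peptidyl transferase centre, had 903, 879, 952 and 1026 CPM in M0+iMSCs, against 614, 619, 619.75 and 638 CPM in M0. It rose by 0.59 ± 0.05 (adjusted p = 3.25e-08) with no overlap. RPL18 had 257, 242, 285 and 307 CPM in M0+iMSCs and 189, 187, 186 and 181 CPM in M0 (0.56 ± 0.07, adjusted p = 1.1e-06). RPL34, RPL10A and RPL13A rose by 0.47, 0.43 and 0.42, and RPL13A by 0.25 without M0+iMSCs replicates 3 and 4, still past the threshold. RPL5, which with RPL11 binds the p53 regulator MDM2, had 467, 430.4, 519 and 564 CPM in M0+iMSCs and 361, 368, 376 and 388 CPM in M0, and rose by 0.41, or 0.27 without those 2 M0+iMSCs libraries. RPL11 was called lower at -0.15 (adjusted p = 0.0474), a call that was lost without any single one of M0 replicates 2, 3 and 4 or M0+iMSCs replicates 1 and 2, at -0.12 to -0.15.

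Under stimulation, co-culture went with higher levels of most ribosomal protein mRNAs. In M0+LPS+IFN-γ+iMSCs against M0+LPS+IFN-γ, 62 of 83 rose and 4 fell. These are 74.7% and 4.82%, against 38.4% higher and 36.3% lower among all genes tested, and the median log2 fold change was 0.31, against 0.03. In the large subunit 35 of 43 rose and 1 fell, in the small subunit 22 of 31 rose and 2 fell, in the P-stalk 2 of 3 rose, and among the paralogs 3 of 6 rose and 1 fell. With library totals the median of all genes moved by 0.47, with 9020 genes higher and 3066 lower. Of the members 81 then rose and 1 fell. Their median stood 0.29 above that of all genes (0.288 with totals, 0.285 with TMM). Without M0+LPS+IFN-γ replicate 4, 67 rose and 3 fell, with a median of 0.35. This comparison and the one of stimulation alone share the M0+LPS+IFN-γ libraries, so their values are not independent.

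RPSA and RPL22 had the largest rises in stimulated co-culture among genes whose mean log2 CPM reached 3, and below that level RPL36A rose by 1.61 and RPL26 by 1.44. RPSA was at 345, 407, 400.4 and 336 CPM in M0+LPS+IFN-γ+iMSCs, against the 201 to 206 CPM of M0+LPS+IFN-γ, a rise of 0.87 ± 0.06 (adjusted p = 4.61e-10) without overlap. RPL22 was at 37.6, 41.4, 41.0 and 33.5 CPM in M0+LPS+IFN-γ+iMSCs, against 20.5 to 21.7 CPM in M0+LPS+IFN-γ, a rise of 0.87 ± 0.08 (adjusted p = 1.15e-08). The libraries of both genes separated completely by group. RPL37A, a zinc-binding protein of the large subunit, had 476, 560.4, 552 and 546 CPM in M0+LPS+IFN-γ+iMSCs and 299.8, 318, 304 and 360.4 CPM in M0+LPS+IFN-γ (0.74 ± 0.06, adjusted p = 1.14e-08). RPL5 was at 388, 422, 417 and 414 CPM in M0+LPS+IFN-γ+iMSCs, against 258, 262, 260.2 and 236 CPM in M0+LPS+IFN-γ, and rose by 0.69. RPS6 was at 795, 924, 889.7 and 902 CPM in M0+LPS+IFN-γ+iMSCs, against 539 to 606 CPM in M0+LPS+IFN-γ, and rose by 0.64, again with no overlap. RPL13A was at 455, 504, 478 and 495 CPM in M0+LPS+IFN-γ+iMSCs, above the 312 to 402 CPM of M0+LPS+IFN-γ, and rose by 0.51 (adjusted p = 5.96e-05).

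The 4 genes called lower in stimulated co-culture were RPS27L, RPL10, RPS9 and RPS27. RPS27L was at 40.7, 41.3, 38.7 and 40.2 CPM in M0+LPS+IFN-γ+iMSCs, against 64.2 to 71.9 CPM in M0+LPS+IFN-γ, and fell by 0.77 ± 0.06 (adjusted p = 1.21e-09). Its libraries did not overlap between the groups, and with library totals it still fell, by 0.29. RPL10, which completes the peptidyl transferase region late in assembly, was at 242, 255, 258 and 234 CPM in M0+LPS+IFN-γ+iMSCs and 314, 321, 303 and 334 CPM in M0+LPS+IFN-γ (-0.36 ± 0.05, adjusted p = 4.18e-06), but at 0.11 with library totals. RPS9 at -0.25 and RPS27 at -0.18 likewise turned to 0.22 and 0.29 with library totals. The RPS27 groups overlapped, and its call (adjusted p = 0.0425) was lost at -0.11 without M0+LPS+IFN-γ replicate 4 (adjusted p = 0.118), at -0.14 without M0+LPS+IFN-γ+iMSCs replicate 1, and without M0+LPS+IFN-γ replicate 2 or M0+LPS+IFN-γ+iMSCs replicate 2 or 3, at -0.17 to -0.19. RPLP0 rose by 0.21, or 0.14 without M0+LPS+IFN-γ replicate 4 (adjusted p = 0.0226), while RPLP2 rose by 0.17, a call lost without M0+LPS+IFN-γ+iMSCs replicate 2 or 3 at 0.15.

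**Figure D4:**
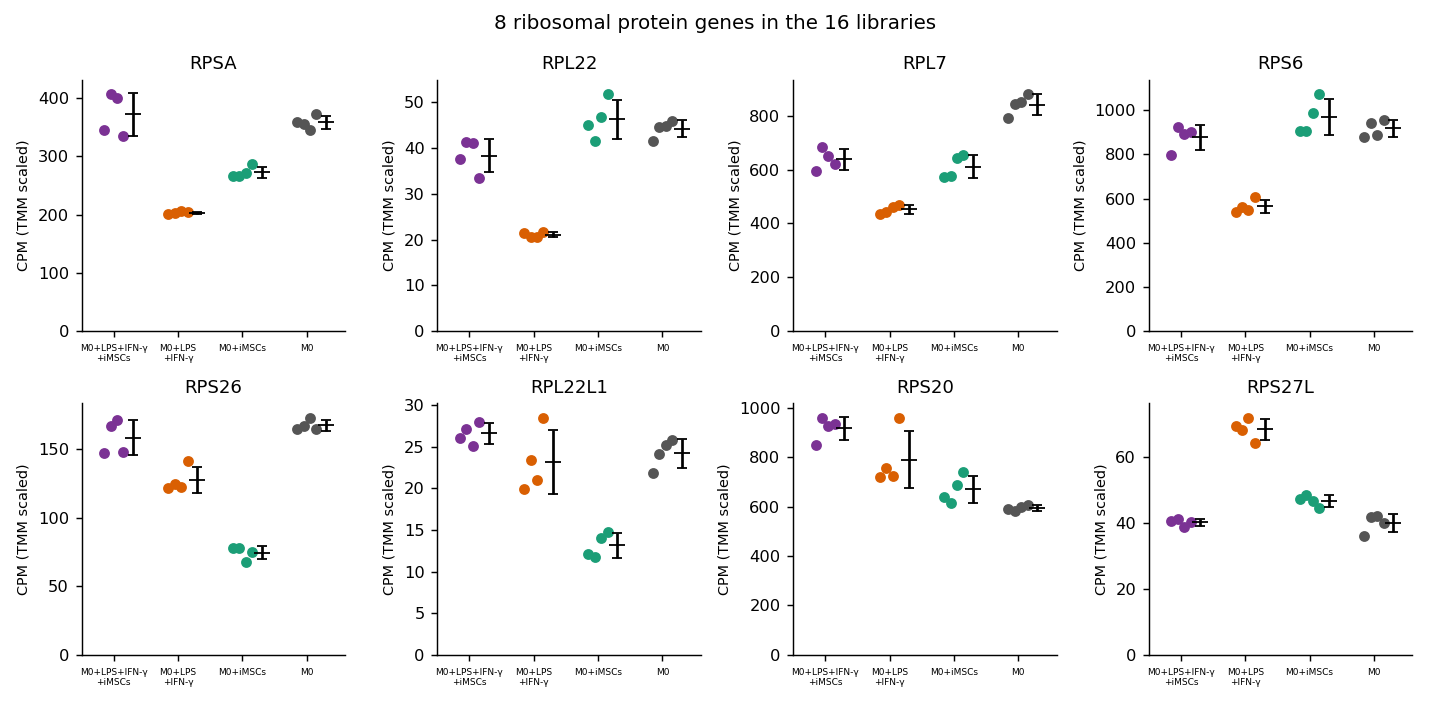
TMM-scaled CPM of 8 ribosomal protein genes in each library, with group means and SD bars. RPSA, RPL22, RPL7 and RPS6 are lowest in M0+LPS+IFN-γ, RPS26 and RPL22L1 are lowest in M0+iMSCs, and RPS27L is highest in M0+LPS+IFN-γ.

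Within co-culture, stimulation changed fewer of the genes. In M0+LPS+IFN-γ+iMSCs against M0+iMSCs, 19 of 83 rose (22.9%, against 39.3% of all genes tested) and 25 fell (30.1%, against 35.1%). The median log2 fold change was -0.06, against 0.05 over all genes. The small subunit had 10 of 31 higher and 7 lower, and the large subunit 7 of 43 higher and 15 lower. Falls numbered 38 without M0+iMSCs replicates 1 and 2 together and 12 without replicates 3 and 4 together, so this count rested on which co-culture libraries entered.

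RPS26 was at 147, 167, 171 and 148 CPM in M0+LPS+IFN-γ+iMSCs, against 67.6 to 77.9 CPM in M0+iMSCs, and rose by 1.09 ± 0.07 (adjusted p = 9.41e-11) with no overlap. RPL22L1 was at 26.1, 27.15, 25.1 and 28.0 CPM in M0+LPS+IFN-γ+iMSCs, against 11.7 to 14.7 CPM in M0+iMSCs, and rose by 1.01 ± 0.10 (adjusted p = 9.68e-08). In both genes the M0+LPS+IFN-γ+iMSCs libraries overlapped those of M0. RPL41, RPS19 and RPS20 rose by 0.50, 0.48 and 0.45. RPS19, the protein mutated most often in Diamond-Blackfan anaemia, was at 219.9, 240.0, 245 and 235 CPM in M0+LPS+IFN-γ+iMSCs, above the 158 to 181 CPM of M0+iMSCs. RPL10, RPL3, RPL18 and RPL10A fell by 0.58, 0.57, 0.55 and 0.47, all without overlap between the groups.

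The co-culture effect was mostly more positive under stimulation than at rest where the 2 differed. The difference, the log2 fold change of co-culture under stimulation minus that at rest, was positive past the threshold for 47 of 83 (56.6%, against 31.1% of all genes tested) and negative for 5 (6.02%, against 31.1%). Without M0+LPS+IFN-γ replicate 4 these counts were 53 and 5. Its median was 0.27, against 0.02 over all genes. Library totals moved the median of all genes by 0.33, with 7029 genes positive and 3108 negative. Those totals gave 75 and 1 among the members, whose median stood 0.255 above that of all genes with either scaling. Among genes whose mean log2 CPM reached 3, RPS26 had the largest difference at 1.48 ± 0.09 (adjusted p = 4.52e-10), with a co-culture effect of 0.31 under stimulation and -1.17 at rest. RPSA followed at 1.27 ± 0.08 (adjusted p = 1.03e-09), with 0.87 under stimulation and -0.40 at rest. RPL22L1, RPL35 and RPL7 had differences of 1.08, 0.96 and 0.96. Below that level RPL36A was at 2.67, RPL26 at 2.07 and RPS10 at 1.57, all called. RPL35, which lies at the exit of the peptide tunnel, was at 210.5, 246, 240.3 and 218 CPM in M0+LPS+IFN-γ+iMSCs, 146, 156, 147 and 165 CPM in M0+LPS+IFN-γ, 179, 169, 178 and 189 CPM in M0+iMSCs, and 230.4, 233, 236 and 232 CPM in M0. It was thus lower than M0 in each single condition, while the combined condition overlapped M0.

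RPS27L, RPL18, RPL39L, RPS27 and RPL10 had negative differences. They were -0.99, -0.51, -0.49, -0.48 and -0.41, and all but that of RPS27L lost their call with library totals, at -0.18, -0.16, -0.14 and -0.08. For RPS27L the co-culture effect was -0.77 under stimulation and 0.22 at rest. RPL18 was at 174, 186, 193 and 189 CPM in M0+LPS+IFN-γ+iMSCs and 177, 178, 168.5 and 198 CPM in M0+LPS+IFN-γ, where the groups overlapped, and its co-culture effect was 0.05 under stimulation and 0.56 at rest.

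Paralog pairs were set against each other as ratios of counts within a library, which need no scaling between libraries. RPL22L1 over RPL22 averaged 0.699 ± 0.0968 in M0+LPS+IFN-γ+iMSCs, 1.10 ± 0.167 in M0+LPS+IFN-γ, 0.284 ± 0.0124 in M0+iMSCs and 0.547 ± 0.0174 in M0 (SD, n = 4 each). These 4 groups did not overlap each other, and M0+LPS+IFN-γ was the group where the paralog had about as many counts as RPL22. RPS27L over RPS27 averaged 0.0673 ± 0.00487 in M0+LPS+IFN-γ+iMSCs, 0.102 ± 0.0138 in M0+LPS+IFN-γ, 0.0644 ± 0.00865 in M0+iMSCs and 0.067 ± 0.00541 in M0, and every M0+LPS+IFN-γ library stood above those of the other 3 groups, which overlapped. RPL39L over RPL39 averaged 0.0254 ± 0.0019 in M0+LPS+IFN-γ+iMSCs, 0.0274 ± 0.00483 in M0+LPS+IFN-γ, 0.0364 ± 0.00467 in M0+iMSCs and 0.0171 ± 0.00186 in M0, and every M0 library lay below all others. RPL7L1 over RPL7 averaged 0.391 in M0+LPS+IFN-γ+iMSCs, 0.465 in M0+LPS+IFN-γ, 0.405 in M0+iMSCs and 0.382 in M0, with overlapping libraries. In 16 exact two-sided permutation tests of these 4 ratios in the 4 comparisons of groups, the smallest p that 4 against 4 libraries allow is 0.0286, and 9 tests reached it. Adjusted over the 16 tests it is 0.0508, so none passed.

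Summed mRNA counts lay higher on the small-subunit side in stimulated cells. Counts of the small-subunit genes over those of the large-subunit and P-stalk genes together averaged 0.678 ± 0.00336 in M0+LPS+IFN-γ+iMSCs, 0.677 ± 0.0142 in M0+LPS+IFN-γ, 0.63 ± 0.00478 in M0+iMSCs and 0.634 ± 0.00549 in M0 (SD, n = 4 each). The 8 stimulated libraries ranged from 0.667 to 0.697 and the 8 unstimulated ones from 0.626 to 0.638, so they did not overlap. Without RPS20, an alternative chosen after seeing the data, the means were 0.622 in M0+LPS+IFN-γ+iMSCs, 0.617 in M0+LPS+IFN-γ, 0.592 in M0+iMSCs and 0.598 in M0, and the stimulated libraries still lay above the others. No test was made of this sum, which weighs genes by their counts and does not measure ribosomal subunits. Gene by gene, the median log2 fold change on stimulation was -0.34 in the small and -0.348 in the large subunit. For stimulation within co-culture it was 0.026 in the small and -0.085 in the large subunit.

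**Figure D5:**
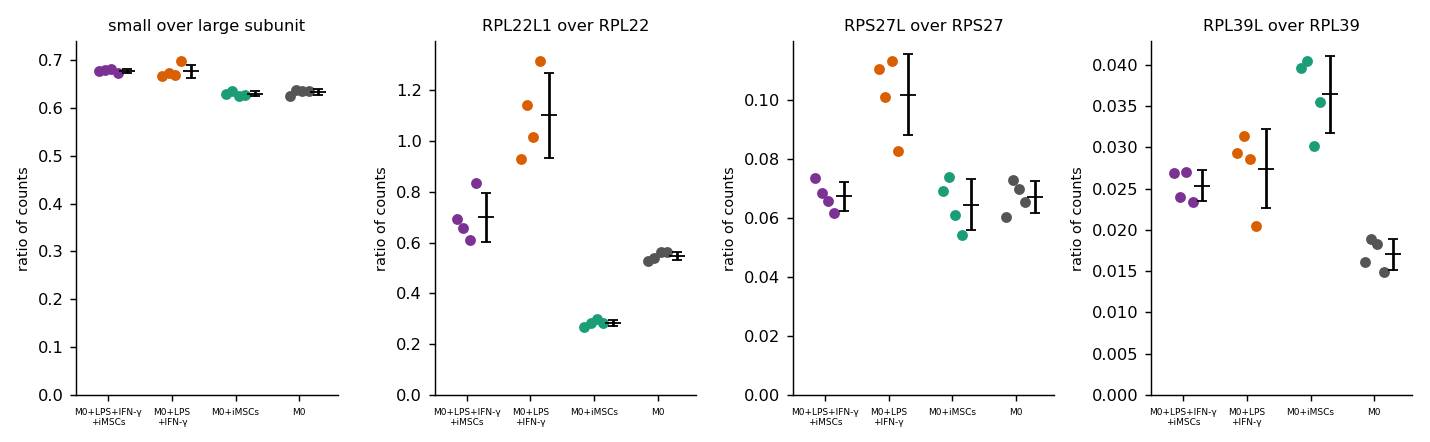
Ratios of counts within each library, with group means and SD bars, for small-subunit genes over large-subunit and P-stalk genes together and for 3 paralogs over their partners. RPL22L1 over RPL22 separates all 4 groups, from 0.284 in M0+iMSCs to 1.10 in M0+LPS+IFN-γ.

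Levels per length were led by RPS27, with 1930 CPM per kilobase in M0+LPS+IFN-γ, 2080 in M0+iMSCs and 1700 in M0. In M0+LPS+IFN-γ+iMSCs RPS20 led at 1770 CPM per kilobase, ahead of RPS27 at 1700. This order rests on the deposited exon length, which is 352 bases for RPS27 and 7573 for RPL37. Before division by length RPL37 averaged 798 CPM in M0, above RPS27 at 597 CPM. At the other end, 7 tested genes stayed under 15 CPM in every group, among them RPL17, RPL36A, RPL39L and RPS10. All of the 7 but RPL39L overlap a coding row on the same strand that held 0 counts in all libraries, such as the readthrough RPS10-NUDT3 over 100% of RPS10. Of the 75 other genes with values only RPL22 has such an overlap, while RPL36 overlaps a row with 278 counts. RPL36A showed the largest changes in these genes on stimulation and in stimulated co-culture, -1.33 ± 0.17 on stimulation and 1.61 ± 0.17 for co-culture under stimulation, with means of 5.63 CPM in M0+LPS+IFN-γ+iMSCs, 1.84 CPM in M0+LPS+IFN-γ, 2.21 CPM in M0+iMSCs and 4.61 CPM in M0. The part of the overlapping rows in these values was not tested. Counting only the 75 genes whose average log2 CPM reached 4, a limit chosen after seeing the data, 56 fell and 5 rose on stimulation, and 57 rose and 4 fell in stimulated co-culture.

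The levels of most of the genes moved together over the 16 libraries. The correlation of a gene's log2 CPM with the mean of the others had a median of 0.76 over 82 genes, 65 were above 0.5 and 8 below 0. RPS27L at -0.91 and RPS9 at -0.65 were the lowest, while RPS23 reached 0.98. These libraries share 4 groups, so the correlations describe the group differences above. Among 8651 other genes, ELOVL5, THRA, SNHG8, SPINT1 and MRPS25 had the patterns most like the mean of the ribosomal protein genes, with Pearson r of 0.96, 0.95, 0.93, 0.93 and 0.93 over 16 libraries.

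Genes needed to build ribosomes were lower on stimulation as well. Of 48 tested ribosome biogenesis genes, 45 fell and none rose in M0+LPS+IFN-γ against M0, with a median of -0.77. Falls were 93.8% of this list, against 28.3% of all genes tested. RRP12, NOP56, RSL1D1 and DKC1, nucleolar factors of ribosome assembly, had log2 fold changes of -1.41, -1.28, -1.04 and -1.15. In M0+iMSCs against M0, 42 fell (87.5%, against 33.6% of all genes) and 1 rose (2.08%, against 36.2%) with a median of -0.80, including RRN3, which recruits RNA polymerase I, at -1.42 and NOP16 at -1.89. In stimulated co-culture 15 rose (31.2%, against 38.4%) and 16 fell (33.3%, against 36.3%), shares near those of all genes, with a median of 0.03. With library totals 33 rose and 6 fell (median 0.51). All genes tested then had a median of 0.5, with 9020 higher and 3066 lower, so the list median lay near theirs. With TMM factors NMD3, the export adaptor of the large subunit, was at 1.00, NOP56 at 0.91, RRP12 at -1.46 and SBDS at -1.54. Stimulation within co-culture gave 11 higher and 16 lower (22.9% and 33.3%, against 39.3% and 35.1% of all genes, and 13 and 10 genes with library totals). The difference of the co-culture effects gave 39 higher and 3 lower (81.2% and 6.25%, against 31.1% each way).

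Noncoding and coding hosts of small nucleolar RNAs, many of them with TOP starts, fell together on stimulation, with 13 of 13 lower, against 28.3% of all genes tested, and a median of -1.08. SNHG1 was at -1.60 ± 0.08 (adjusted p = 4.09e-11), and in stimulated co-culture it was at 1.02, where 7 of the 13 rose and 3 fell (53.8% and 23.1%, against 38.4% and 36.3% of all genes). At rest, co-culture gave 4 higher and 5 lower (4 and 3 with library totals), which at 30.8% and 38.5% lay near the 36.2% and 33.6% of all genes. Stimulation within co-culture gave 2 and 8 (15.4% and 61.5%, against 39.3% and 35.1%) and the difference 6 and 3 (46.2% and 23.1%, against 31.1% each way).

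Translation factors were lower in most calls of each comparison of groups, except in stimulated co-culture with library totals, where 22 rose and 7 fell. Those totals also gave 9020 higher and 3066 lower among all genes tested. The median of the list was then 0.28, below the 0.5 of all genes. On stimulation 24 of 40 fell (60.0%, against 28.3% of all genes tested) and 2 rose (5.0%, against 29.1%), and the eIF3 subunits EIF3J, EIF3E and EIF3M were at -0.99, -0.82 and -0.66. With TMM factors 22 fell (55.0%, against 36.3%) and 5 rose (12.5%, against 38.4%) in stimulated co-culture, with EIF1 and EIF5, which select the start codon, at -1.37 and -1.37. At rest 24 fell (60.0%, against 33.6%) and 10 rose (25%, against 36.2%), with EIF5 at -1.78. Within co-culture stimulation gave 20 lower (50.0%, against 35.1%) and 12 higher (30.0%, against 39.3%). The difference of the co-culture effects was positive for 18 and negative for 15 (45% and 37.5%, against 31.1% each way, and 23 and 3 genes with library totals). Among all genes tested library totals gave 7029 positive and 3108 negative differences.

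Of 27 tested genes of mTORC1 and translational control, 6 rose and 9 fell on stimulation, 11 and 9 in co-culture at rest, 12 and 12 in stimulated co-culture, 11 and 12 on stimulation within co-culture, and 7 and 11 had positive and negative differences. These shares ran from 22.2% to 44.4%, against 28.3% to 39.3% of all genes in the same comparisons. With library totals these splits were 3 and 18, 15 and 7, 17 and 8, 12 and 12, and 14 and 8. Those of all genes tested were then 2520 and 6938, 6541 and 4093, 9020 and 3066, 6534 and 4876, and 7029 and 3108. LARP1, which binds TOP mRNAs, averaged 233 ± 8.84 CPM in M0+LPS+IFN-γ+iMSCs, 112 ± 3.88 CPM in M0+LPS+IFN-γ, 219 ± 9.0 CPM in M0+iMSCs and 214 ± 4.35 CPM in M0 (SD, n = 4 each). It was at -0.93 ± 0.05 on stimulation (adjusted p = 2.4e-11) and at 1.05 ± 0.05 in stimulated co-culture (adjusted p = 1.3e-12). EIF4EBP1, the repressor of cap-dependent initiation, was at -1.45 on stimulation and at 1.41 in stimulated co-culture. EEF2K, which inhibits elongation, was at -0.93 and 2.94 in the same comparisons, and DDIT4 at 1.41 and -1.575.

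Of the 6 genes of the GAIT complex and its kinases, 2 fell and 1 rose on stimulation (33.3% and 16.7%, against 28.3% and 29.1% of all genes). EPRS1, the synthetase that carries the complex to mRNA, was at -1.34 ± 0.08 on stimulation and at 0.67 ± 0.08 in stimulated co-culture, while RPL13A is the member given above. Co-culture at rest gave 2 higher and 2 lower, stimulated co-culture 3 and 2 (5 and 0 with library totals), stimulation within co-culture 2 and 1, and the difference 3 and 1 (5 and 0). These shares ran from 16.7% to 50.0%, against 31.1% to 39.3% of all genes. On stimulation library totals gave 0 higher and 4 lower. RACK1 and RPL36AL encode ribosome-bound or ribosomal proteins but fall outside the rule. RACK1, a scaffold on the small subunit, was at -0.54 on stimulation and 0.24 in stimulated co-culture, and RPL36AL at -0.69 in co-culture at rest.

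Proliferation genes were measured beside the ribosomal ones because ribosome content is tied to growth. Their 14 genes summed to 578 to 1017 CPM in M0+LPS+IFN-γ+iMSCs, 107 to 125 CPM in M0+LPS+IFN-γ, 269.7 to 490.1 CPM in M0+iMSCs and 121 to 123 CPM in M0. All 14 rose in stimulated co-culture (median 3.23, against 38.4% of all genes higher) and 12 in co-culture at rest (median 2.93, 85.7% against 36.2% higher). On stimulation alone 1 fell (7.14%, against 28.3% of all genes) and none rose (against 29.1%). Stimulation within co-culture gave 13 higher (92.9%, against 39.3%) and the difference 10 higher (71.4%, against 31.1%), with none lower. The part of proliferation in the ribosomal protein levels was not tested.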

How the data were processed

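Total RNA was made into libraries with a VAHTS Universal V6 kit according to the labels' protocols. The deposited values are raw counts for each gene. The tools HISAT2 and HTSeq and the build GRCh38 are named, per the submitters' processing notes, with no version or role. Per the file headers the annotation is GRCh38.p13. How ambiguous or multi-mapped reads were counted, and whether strand was used in counting, are not given in the sources used here. Counts shared with paralogs, pseudogenes and overlapping genes are therefore uncertain. The 1302 ribosomal protein pseudogene rows held 0.0153% to 0.0279% of counts on group average. All gene rows entered the totals, and no column of other samples was present.

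Counts were fitted in R 4.3.3 with edgeR 4.0.16: filterByExpr, TMM factors, and a robust quasi-likelihood fit of 4 groups with 12 residual degrees of freedom, tested over 15301 genes with Benjamini-Hochberg adjustment in each of 5 contrasts (threshold 0.05). TMM factors ranged from 1.131 to 1.152 in M0+LPS+IFN-γ+iMSCs, 0.808 to 0.834 in M0+LPS+IFN-γ, 1.07 to 1.098 in M0+iMSCs and 0.978 to 0.988 in M0. The SE is the absolute log2 fold change over the square root of F. CPM are TMM scaled. Each contrast names the 5 largest called rises and falls above an average log2 CPM of 3, plus genes of known role, of which some are not reported here; other lists name up to 4 genes of smallest p. Members and lists were chosen with earlier results of these data known. DESeq2 1.42.0, limma 3.58.1 (voom), other scaling, filters, a replicate block and libraries left out were alternatives. The fit was tested on simulated data. Ratios were tested in Python 3.11.15 with scipy 1.17.1, and figures drawn with matplotlib 3.10.9. Promoter windows are from RefSeq, GRCh38.p14.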

Additional observations from a re-analysis of the deposited data

Results flagged for a closer look

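In 92 groups of 4 libraries, 5 held a library far from the other three by Dixon's criterion (0.829 of the range), and chance flags about 1 in 20 groups. Of these, 4 belong to replicate 4 of M0+LPS+IFN-γ, with RPS26 at 141.2 CPM, RPL41 at 537.5 CPM and RPS20 at 959.9 CPM above, and RPLP0 at 487.8 CPM below, the rest of the group. The other is RPS9 at 245.3 CPM in replicate 4 of M0+iMSCs, above the rest of its group. Without M0+LPS+IFN-γ replicate 4, the stimulation effect of RPL41 was -0.34, against -0.23 with it (adjusted p = 0.0267), a call that was lost without M0 replicate 4 or M0+LPS+IFN-γ replicate 1, 2 or 3 at about -0.20.

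The co-culture effect differed with stimulation (edgeR test of the difference) for 47 genes in the positive and 5 in the negative direction. Among genes whose mean log2 CPM reached 3, the 5 largest positive and all called negative differences were 1.48 for RPS26, 1.27 for RPSA, 1.08 for RPL22L1, 0.956 for RPL35, 0.955 for RPL7, -0.99 for RPS27L, -0.51 for RPL18, -0.475 for RPS27 and -0.41 for RPL10.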

How the results depend on the processing

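Library totals in place of TMM factors were the alternative that turned signs, in 7 of 141 single-gene values. On stimulation they gave 1 higher and a median of -0.597, in co-culture at rest 42 higher, 11 lower and 0.177, in stimulated co-culture 1 lower and 0.788, and for the difference 75 higher, 1 lower and 0.607. The medians of all genes tested were then -0.251, 0.169, 0.5 and 0.352, in the same order. Among the named genes signs turned for RPS27 (-0.073) and RPS19 (-0.26) on stimulation, for RPL10 (0.11), RPS9 (0.222), RPS27 (0.293) and RPL26L1 (0.452) in stimulated co-culture, and for RPL3 (0.204) in the difference. Over all 83 tested members, signs turned with a call under either scaling for 5 on stimulation, 1 at rest, 6 in stimulated co-culture, 0 within co-culture and 8 in the difference. Upper-quartile factors gave 17 lower at rest and a median of 0.394 in stimulated co-culture. RLE factors and DESeq2 each gave 8 lower for the difference. Against a fold of 1.2, stimulation gave 2 higher and 36 lower, co-culture at rest 12 and 11, stimulated co-culture 34 and 2, stimulation within co-culture 12 and 7, and the difference 29 higher, and 39 of the 141 single-gene values lost their call.

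Alternatives chosen after seeing the data left out pairs of M0+iMSCs libraries. Without replicates 1 and 2, falls numbered 14 at rest, 38 for stimulation within co-culture (median -0.154) and 9 for the difference. Without replicates 3 and 4, co-culture at rest gave 16 higher and a median of -0.068, stimulation within co-culture 12 lower and 0.04, and the difference a median of 0.386. Without 1 library at a time, called genes numbered 4 to 6 higher and 55 to 64 lower on stimulation, 21 to 31 and 20 to 29 at rest (median -0.015 to 0.054), 57 to 68 and 3 to 4 in stimulated co-culture, 15 to 20 and 18 to 32 for stimulation within co-culture, and 42 to 53 and 5 to 6 for the difference.

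Shares were 2.034% in M0+LPS+IFN-γ and 2.856% in M0 without CXCL8, and in M0 2.793% over protein-coding rows and 2.827% without mitochondrial genes. Same-numbered samples deviated together in 6 of 24 pairs (correlation above 0.1, range -0.224 to 0.234). These correlations cannot exclude a shared culture or day, and the labels name none. The fit with a replicate block gave 5 higher and 62 lower on stimulation, 27 and 27 at rest, 63 and 4 in stimulated co-culture, 19 and 25 within co-culture, and 48 and 6 for the difference. Of 141 single-gene values, 135 kept direction and call under the block. The cause of these shifts was not tested. Counts under 15 CPM limit 7 genes.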
